A study of Arabidopsis thaliana with 12 samples.

Results

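FATB (AT1G08510) and LpxA (AT4G29540) of Arabidopsis thaliana encode enzymes that both take acyl chains from acyl carrier protein (ACP). They were picked by gene symbol in the annotation of the array, where each has a probe that lists no other gene. They are 2 of the 691 genes with such a probe, among 3439 probes in all. Both genes were chosen with their difference between the groups already known, so their values are a description and no p-value is given for either.

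The 12 samples are total RNA of wild-type plants of the Landsberg ecotype. After 12 h of darkness all plants were put back in the light and taken 30 min later. Of the samples 6 had been given water and 6 had been given 50 µM paraquat, which is a herbicide that accepts electrons at photosystem I and hands them to oxygen. The labels give neither the organ nor the age of the plants, and do not say whether the numbers 1 to 6 within a group stand for separate plants or repeated readings. Paraquat against water is the 1 comparison the labels imply, and it asks which transcripts differed between the treatments after 30 min of light. No group was taken in the dark, so a difference cannot be placed before or after the return to light.

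Fatty acids of plants are built stepwise in the plastid stroma while the growing chain stays bound to ACP. FATB is the plastid acyl-ACP thioesterase that prefers saturated chains. It cuts palmitate off ACP, and the free acid leaves the plastid for the membrane lipids, waxes and cutin made elsewhere in the cell. The related FATA thioesterases prefer oleoyl-ACP. LpxA is named after the bacterial acyltransferase that opens the synthesis of lipid A, the membrane anchor of lipopolysaccharide, by moving a hydroxyacyl chain from ACP to a nucleotide sugar. Arabidopsis has counterparts of several enzymes of that bacterial route, and its LpxA protein is found in mitochondria, which hold an ACP-dependent fatty acid synthesis of their own.

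The array values are intensities on a linear scale set by the authors, with column means between 0.944 and 1.07. Column medians ran from 0.443 to 0.491 under water and from 0.563 to 0.635 under paraquat, so the columns were quantile normalized before testing. Fold changes below are log2 differences of the normalized values, paraquat minus water, and a probe is called changed at an adjusted p under 0.05 in limma's test over all 3439 probes. Samples 1 and 2 of each group stood somewhat apart. Their correlations with samples 3 to 6 were 0.850 to 0.867 under water and 0.847 to 0.884 under paraquat, against 0.897 to 0.956 and 0.879 to 0.927 among samples 3 to 6. Neighbouring numbers correlated at 0.878 to 0.956 under water and 0.879 to 0.927 under paraquat. For other numbers the ranges were 0.850 to 0.918 and 0.847 to 0.906. The labels do not say whether neighbours come from the same plants, so SE values at n = 6 may be too small.

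The LpxA transcript was lower under paraquat. Its deposited intensity ran from 2.19 through a median of 2.45 to 3.05 in the 6 water samples, and from 0.726 through 0.877 to 1.15 in the 6 paraquat samples. The lowest water sample thus lay above the highest paraquat sample, and the groups did not overlap. Over all probes, 14.6% had all 6 paraquat samples under all 6 water samples in the same way. The water mean was 2.59 ± 0.37 (SD, n = 6) and the paraquat mean 0.907 ± 0.164 (SD, n = 6). After normalization LpxA fell by 1.68 ± 0.15 (log2 scale; SE, n = 6 per group), which makes it 3.21-fold lower. In a bulk sample a lower level per cell and fewer cells with the transcript cannot be told apart.

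The size of the LpxA difference was much the same in every numbered pair of samples. The labels do not say that equal numbers belong together, so the numbered pairs here and below are a description. The ratio of paraquat to water in the deposited intensities was lowest at 0.308 in number 4 and highest at 0.391 in number 2. On the normalized log2 scale the 6 differences ran from -1.97 to -1.41, with an SD of 0.22. Samples 5 and 6 had the highest LpxA intensities within their own group, under water (3.03 and 3.05) as well as under paraquat (1.04 and 1.15). Averaged over neighbouring numbers, the differences were -1.63 for samples 1 and 2, -1.93 for 3 and 4 and -1.48 for 5 and 6. Without samples 1 and 2 of both groups the log2 fold change was -1.71.

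The FATB signal was dim, and its groups overlapped. Its deposited intensity ran from 0.140 through a median of 0.216 to 0.262 under water, and from 0.0657 through 0.158 to 0.190 under paraquat. Of the 6 paraquat samples, 5 lay inside the range of the water samples, in its lower part, and only sample 1 lay below it. That sample, at 0.0657, was also the only FATB value under 0.118, the 5th percentile of all intensities above 0. The group means were 0.211 ± 0.046 (SD, n = 6) and 0.148 ± 0.043 (SD, n = 6). The log2 fold change was -0.55 ± 0.23 (SE, n = 6 per group).

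FATB was lower under paraquat in 5 of the 6 numbered pairs. Its log2 differences ran from -1.82 in number 1 to 0.07 in number 2, with an SD of 0.72. Number 1 combined a high water value (0.252) with the lowest paraquat value, and number 2 combined the lowest water value (0.140) with a paraquat value of 0.167. The mean over the neighbouring numbers 3 and 4 was -0.09, against -0.88 for 1 and 2 and -0.68 for 5 and 6. Without paraquat sample 1 the log2 fold change was -0.38, and without samples 1 and 2 of both groups it was -0.39. It was -0.65 without water sample 2 and -0.63 without water sample 4, and in these fits FATB passed the threshold. As FATB was chosen with its difference known, these calls are a description only.

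**Figure D1:**
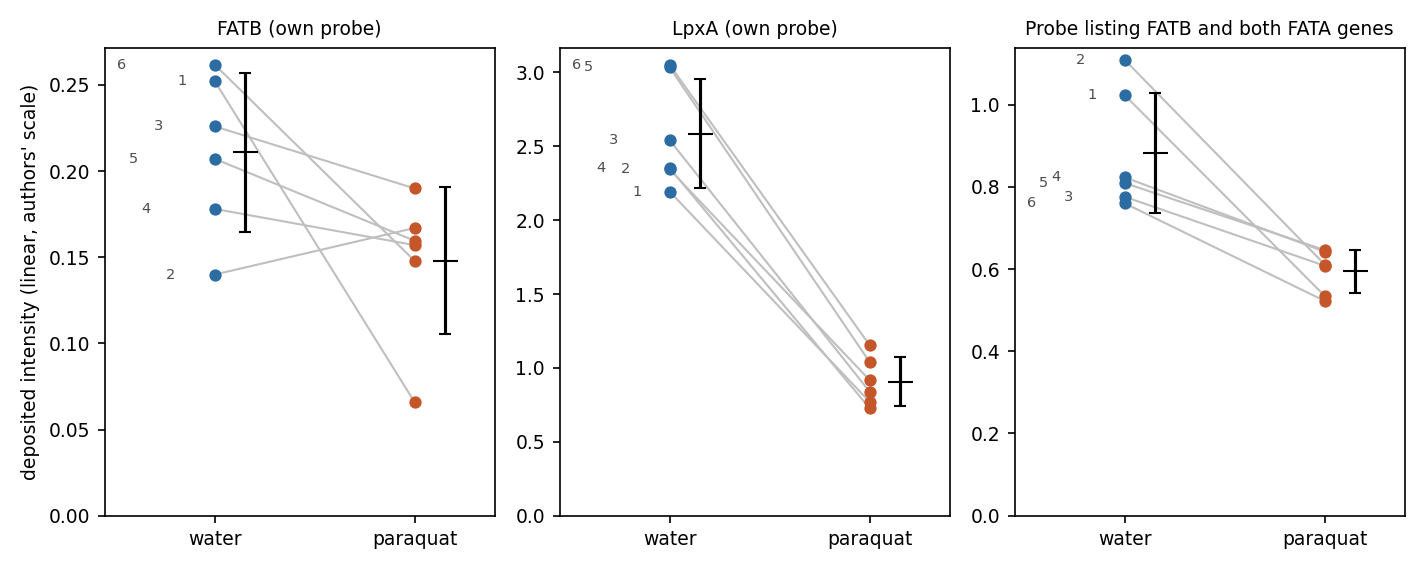
Deposited intensity (linear, authors' scale) of the FATB probe, the LpxA probe and a probe that lists FATB with both FATA genes, for water and paraquat samples. Points are samples, grey lines join equal sample numbers (printed at the water points), and black bars are the mean ± SD of 6 samples. The LpxA groups are wide apart, while 5 of 6 FATB paraquat samples lie within the water range.

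Of both genes, 1 passed the threshold in the fit over all probes, LpxA. In that fit 52.5% of all probes passed, and 28.5% of all probes passed as lower under paraquat, so a count of 1 in 2 says nothing particular about these genes. By size, 97 of the 3439 probes had a lower log2 fold change than LpxA, and 976 had a lower one than FATB. The difference between both genes, LpxA minus FATB, was -1.13 ± 0.80 on the log2 scale (SD, n = 6 numbered pairs). It was negative in 5 of 6 pairs and at 0.09 in number 1, the pair with the low FATB value. Within the groups the levels of both genes were only loosely related, with a Pearson correlation of deviations from the group means of 0.32 over 12 samples that share numbers.

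Fold changes on this array follow the probe number in a repeating period, here divided into 24 steps of 12 numbers. Step medians over all probes ran from -0.76 to 0.65. LpxA stands at a step where the other 143 probes had a median log2 fold change of -0.59, and FATB at one where the other 143 had -0.36. Both genes thus sit on low stretches of the profile. With every sample centred by step, LpxA was at -1.14 ± 0.17 (SE, n = 6 per group) and still past the threshold, and FATB was at -0.26 ± 0.24. As LpxA was chosen with its difference known, that call describes the processing and is no independent support. What causes the profile was not tested.

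**Figure D2:**
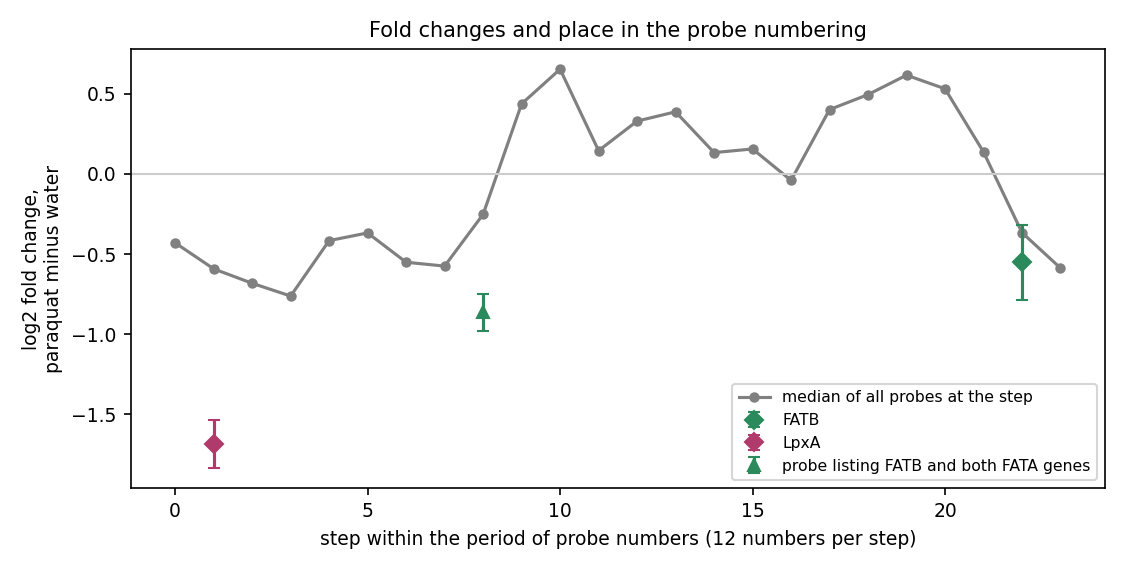
Median log2 fold change (paraquat minus water) of all probes at each of 24 steps of the period in probe number, in grey, with FATB, LpxA and the probe listing FATB and both FATA genes marked at their own steps (bars, SE, n = 6 per group). FATB lies near the median of its step (-0.36), and LpxA at -1.68 lies below that of its step (-0.59).

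A second probe bears on the thioesterases. It lists FATB together with both FATA genes (AT3G25110 and AT4G13050), so its signal cannot be assigned to any of the 3. Its deposited intensity ran from 0.760 through 0.817 to 1.11 under water and from 0.523 through 0.610 to 0.647 under paraquat, without overlap. Its log2 fold change was -0.86 ± 0.12 (SE, n = 6 per group), with lower values under paraquat in 6 of 6 numbered pairs. With position centring it was -0.69. A further probe lists both FATA genes without FATB, and was at -0.11 ± 0.19 (SE). Its direction turned with the values as deposited (0.21) and after position centring (0.38). Deviations from the group means of the 3-gene probe and of the FATB probe correlated at 0.17 over the 12 samples.

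These probes with several genes were chosen after their values were seen, as those on which every listed gene belongs to the lists of ACP-dependent metabolism used here. Their values are therefore a description too, with no p-value. The 5 lists hold 78 genes of acyl-ACP use, plastid fatty acid synthesis, fatty acid export and desaturation, lipid A and Kdo synthesis, and mitochondrial fatty acid synthesis. Apart from FATB and LpxA, 5 of these genes had a probe of their own. Of the 5, 2 were lower, 0 higher and 3 did not pass by limma, where 28.5% of all probes were lower and 52.5% changed either way. Their median log2 fold change was -0.0010 against -0.04 over all probes, and -0.50 over the 4 genes with no sample at 0. At these numbers nothing can be read about the lists as a whole. The lists too were chosen with earlier results of these data known, so the adjusted p-values given for their genes are descriptive.

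Both lower genes belong to mitochondrial fatty acid synthesis, of whose list of 6 genes these 2 had a probe of their own. AT2G04540, the mitochondrial ketoacyl-ACP synthase that lengthens the chain, ran from 0.928 through 1.14 to 1.25 under water and from 0.403 through 0.471 to 0.538 under paraquat, with no overlap. It fell by 1.45 ± 0.10 (log2 scale; SE, n = 6 per group; limma, adjusted p = 7.2e-07). Its value was -0.95 with position centring. With neighbouring numbers averaged and their pair as a block, its adjusted p was 0.0165 (limma). AT3G45770, of the mitochondrial enoyl reductases that complete each cycle, ran from 0.180 through 0.269 to 0.403 under water and from 0.104 through 0.125 to 0.221 under paraquat. Its groups overlapped, and 2 paraquat samples lay under the 5th percentile of values above 0. It fell by 0.99 ± 0.28 (SE, limma, adjusted p = 0.0114), had a value of -1.46 with position centring, and was not called with neighbouring numbers averaged without a block (adjusted p = 0.0874). With their pair as a block it was called (adjusted p = 0.0388).

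In plastid fatty acid synthesis, AT1G24360, the ketoacyl-ACP reductase of the stroma, was the 1 gene of 25 with a probe of its own. Its intensity ran from 0.249 through 0.257 to 0.308 under water and from 0.243 through 0.316 to 0.363 under paraquat, and its log2 fold change was -0.0010 ± 0.11 (SE, adjusted p = 1). A pair of probes lists both hydroxyacyl-ACP dehydratase genes (AT5G10160 and AT2G22230), which remove water from the growing chain. Their values had opposite signs. The dehydratase probe numbered 981 had a log2 fold change of 0.45 ± 0.14 (SE) and the one numbered 3526 had -0.47 ± 0.13 (SE). With position centring they were at -0.047 and -0.17, the first was at 0.28 with median centring, and the second was at -0.15 with the values as deposited. Probe 981 lies at a step with a median of 0.43 and probe 3526 at one with -0.37.

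In the lipid A and Kdo list, CKS (AT1G53000), which activates the sugar Kdo with a cytidine nucleotide, was the only gene besides LpxA with a probe of its own. Kdo in plants is a constituent of the pectin rhamnogalacturonan II. CKS ran from 0.111 through 0.163 to 0.218 under water and from 0.0384 through 0.277 to 0.332 under paraquat. Its log2 fold change was 0.35 ± 0.42 (SE, adjusted p = 0.514), and 0.75 (adjusted p = 0.0212) without paraquat sample 5, the lowest of the 12. It was at -0.38 after position centring and at -0.010 with median centring.

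The stearoyl-ACP desaturases, which place the first double bond and thereby make the substrate that FATA prefers, gave weak signals. AT5G16230 was listed at 0 in 9 of 12 samples and was at most 0.0503 in the others, so no fold change is given. A probe that lists AT5G16240 and AT3G02630 was under the 5th percentile of values above 0 in 5 of 6 samples of either group. The probe listing AT3G02620 and AT3G02610 was at -0.17 ± 0.20 (SE), and at -0.67 after position centring. The probe that adds AT5G16230 to these was at 0.21 ± 0.16 (SE), at 0.53 with the values as deposited and at -0.092 after position centring.

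**Figure D3:**
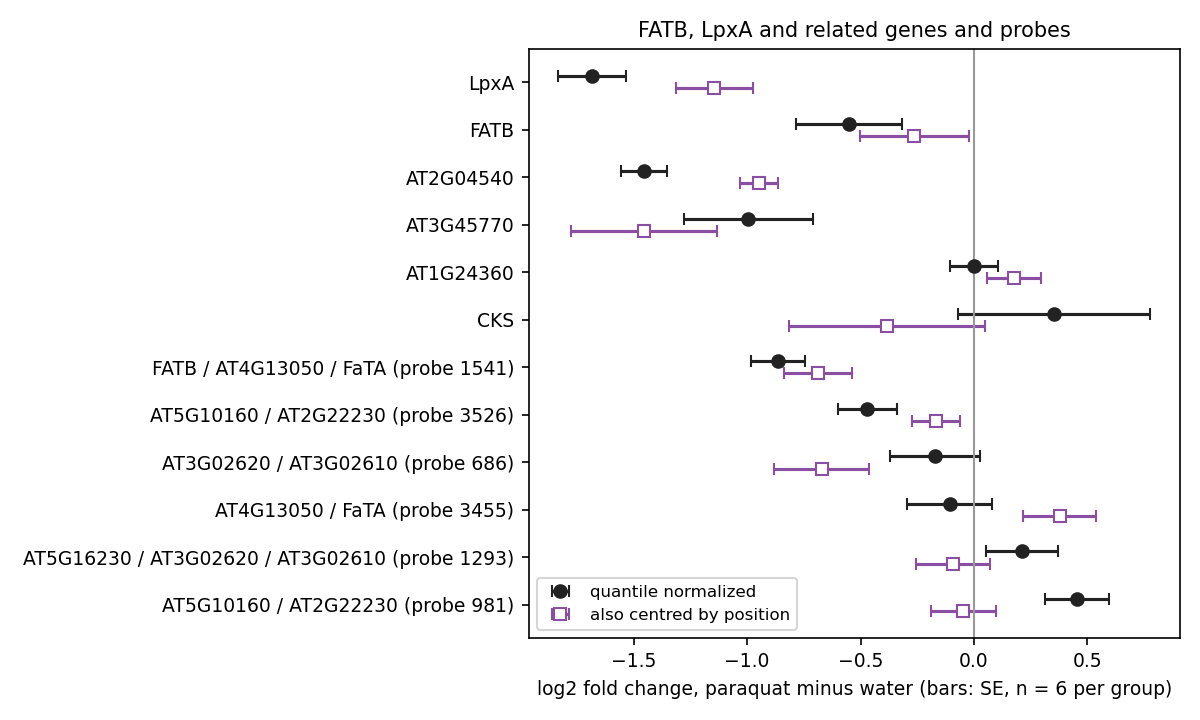
Log2 fold change (paraquat minus water, bars SE, n = 6 per group) of FATB, LpxA, the list genes with a probe of their own and the probes whose several genes all belong to the lists. Filled points are quantile normalized values and open squares the same after position centring, and probes with a sample at 0 are left out. LpxA (-1.68) and AT2G04540 (-1.45) lie lowest among the filled points.

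The genes whose levels most resembled those of LpxA were AT3G46950, AT1G13990 and AT4G16410. Over the 12 samples their normalized log2 values correlated with LpxA at 0.99, 0.99 and 0.98 (Pearson), as the highest of 690 probes with 1 gene. The same 3 genes came first when the group means were removed, with correlations of 0.89, 0.86 and 0.84. Their own log2 fold changes were -1.45, -1.05 and -0.83, and -1.003, -0.55 and -0.34 with position centring. The probes share arrays, and all 3 lie at steps with negative medians (0, 4 and 23), as LpxA does at step 1. Steps 23, 0 and 1 are neighbours where the period starts again. All correlations here were taken without position centring. For FATB the highest correlations were lower, 0.81 for GH9B8, 0.81 for AT1G76450 and 0.77 for SRX. With group means removed they were 0.72 for GH9B8, 0.70 for PIFI and 0.70 for GH9B12. Several of these rested on paraquat sample 1. Without it the correlation with AT1G76450 was 0.50, and with group means removed those with PIFI and GH9B12 were 0.23 and 0.22, while GH9B8 kept 0.81 and 0.72. AT1G76450, PIFI and GH9B12 were each at 0 in 1 sample.

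Of 6 leaf markers 3 had a probe of their own, LHB1B2, PRK and PSAN, and none of these was at 0 in any sample. LHB1B2, a light-harvesting protein, fell by 0.66 and PRK, a Calvin cycle enzyme, fell by 1.24, both past the threshold, while PSAN of photosystem I was at -0.06 and did not pass. Over all probes 28.5% passed as lower and 52.5% either way, so calls in 3 genes say nothing particular about leaf markers. With position centring PRK stayed past the threshold (-0.95), LHB1B2 was at -0.20 and did not pass (adjusted p = 0.352), and PSAN was higher under paraquat at 0.45 (adjusted p = 0.0388). When averaging of neighbouring numbers and the pair block were added, PRK passed (limma, adjusted p = 0.0239) and PSAN did not (adjusted p = 0.146). PSAN was at -0.63 with median centring (adjusted p = 0.034). Their summed deposited intensity was 21.6 to 30.2 under water and 14.2 to 20.2 under paraquat. LHB1B2 made up the largest part of this sum, with means of 17.5 under water and 10.8 under paraquat. None of the 7 root, seed and flower markers had a probe of its own, so the organ makeup could not be checked. In these 3 photosynthesis genes, organ makeup and a response to paraquat cannot be told apart. The part of organ makeup in the LpxA and FATB values was not tested.

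LpxA kept its direction and its call under all 24 alternative settings, with log2 fold changes between -1.86 and -1.14. FATB kept its direction under all 24, between -0.90 and -0.26, and passed the threshold in 3 of them. All settings reuse the same 12 samples, and both genes were chosen with their difference known. These calls therefore describe the processing and are no independent support.

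**Figure D4:**
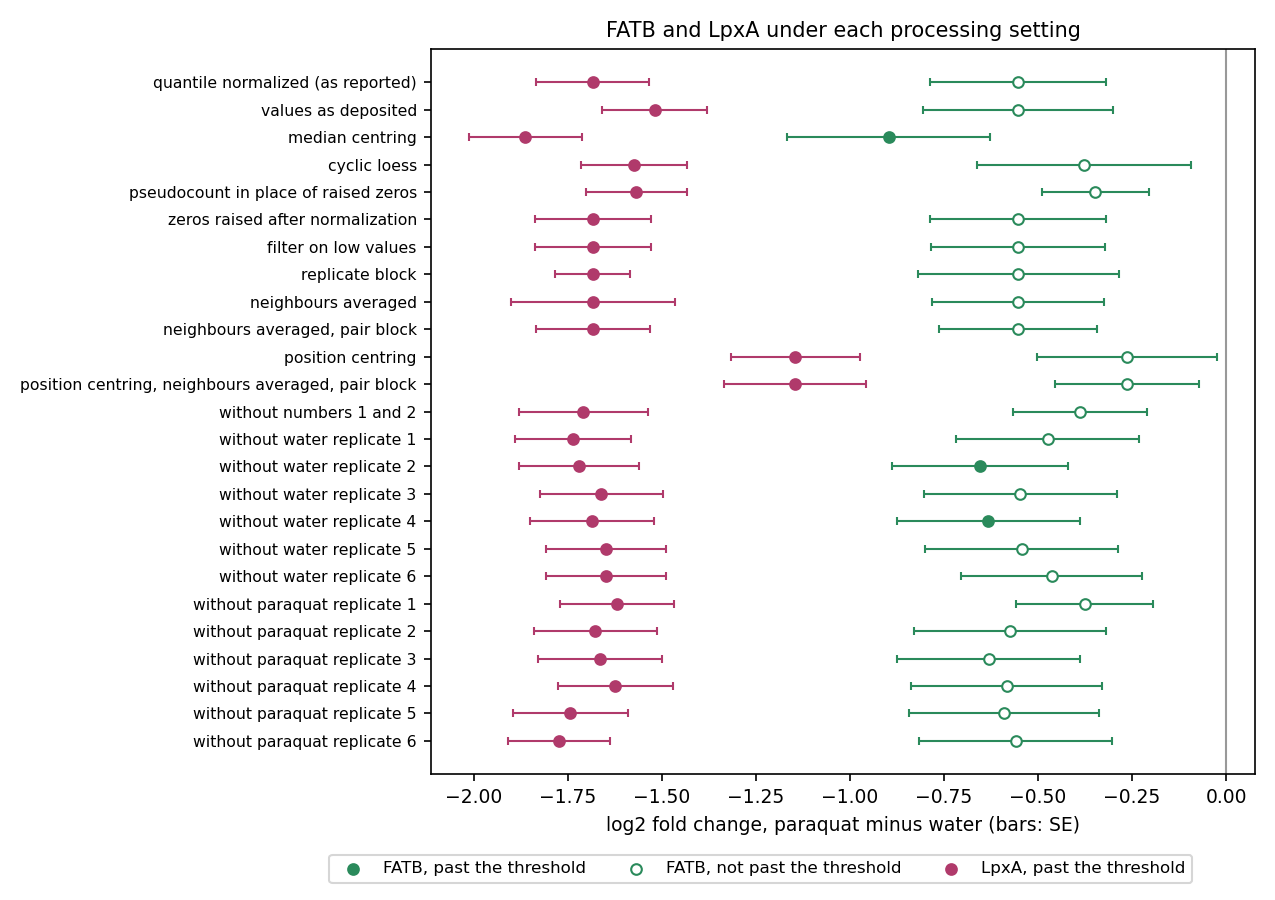
Log2 fold change (paraquat minus water, bars SE) of FATB in green and LpxA in magenta under the reported setting and 24 alternatives. Filled points passed the threshold of 0.05 on adjusted p. All LpxA points are filled, and FATB is filled with median centring and without water sample 2 or 4.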

How the data were processed

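The authors deposited 1 intensity per probe and sample, not log transformed and scaled in a way not given in the sources used here. Precision is limited by the number of arrays. Every column held zeros (108 to 148 of 3439 probes). Each zero was raised to the smallest positive value in its column, columns were quantile normalized because their medians differed by over 10%, and log2 was taken. All probes were fitted in R 4.3.3 with limma 3.58.1 (lmFit, eBayes; two-sided), without a block over the 12 samples. Benjamini-Hochberg adjustment covered all 3439 probes, at a threshold of 0.05, and the fit was tested on simulated data. Because the labels do not call the samples separate plants, the spread behind a p-value may be purely technical.

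Genes were named from the platform annotation, updated by gene identifier with RefSeq symbols (assembly TAIR10.1). Of the probes 692 listed 1 gene, 870 several and 1877 none. The array build is not named, so coordinates are left out, and no sequence is shown. Genes named are FATB, LpxA, list genes and markers with a probe of their own, and the 3 most alike to each of FATB and LpxA by 2 measures. The members and lists were chosen with earlier results of these data known. Equal sample numbers deviated together (correlations 0.337 to 0.505 over 3186 probes without zeros), so the numbers may pair the samples. Values for unequal numbers across the groups are not given, so pairing by number cannot be told apart from a shared grouping of neighbouring numbers. The labels state no pairing, and the main fit has no block for the number. Alternatives were other scalings and treatments of zeros, a filter on low values, the number as a block, averaging of neighbouring numbers, position centring and leaving out samples; leaving paraquat sample 1 out of the correlations was added after seeing the data. Figures were drawn with matplotlib 3.10.9.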

Additional observations from a re-analysis of the deposited data

Results flagged for a closer look

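In 3 of 36 groups of 6 samples, over FATB, LpxA, the list genes, markers and several-gene probes with no sample at 0 and the 3 genes most like LpxA, 1 sample lay far from the others by the ratio of its gap to the whole range. Chance flags about 1 in 20 groups, or 1.8 of 36. FATB in paraquat sample 1 had a ratio of 0.717, with a deposited intensity of 0.0657 against 0.148 for the next lowest paraquat sample. CKS in paraquat sample 5 had a ratio of 0.710, with 0.0384 against 0.189. LHB1B2 in water sample 6 had a ratio of 0.638, with 23.3 against 16.9 for the sample nearest to it after normalization. The FATB and CKS values lie under the 5th percentile of all intensities above 0 (0.118).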

How the results depend on the processing

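Leaving out 1 sample at a time gave log2 fold changes of -0.65 to -0.38 for FATB, -1.77 to -1.62 for LpxA and -1.26 to -1.03 for LpxA minus FATB, which over all 24 alternatives ran from -1.32 to -0.88. FATB passed the threshold with median centring (-0.90), a setting in which the median over all probes moved from -0.04 to -0.16; that median was 0.19 with the values as deposited. The count of changed probes was 1805, 1680 to 1813 without 1 sample, 1964 with the replicate number as a block (LpxA -1.68 and FATB -0.55, with no change in their calls), 1160 with neighbouring numbers averaged and 910 when position centring, averaging and the pair block were joined. Averaging leaves fewer samples. Among changed probes, the higher ones made up 45.8%, 60.1% as deposited and 39.1% with median centring. Of the other list genes 2 passed, 1 with neighbouring numbers averaged, and 2 to 3 without 1 sample. Directions turned for AT1G24360, which passed nowhere (0.18 as deposited, 0.10 with cyclic loess, 0.17 after position centring with or without averaging, -0.050 to 0.051 without 1 sample). They turned for CKS (-0.010 with median centring, -0.38 after position centring with or without averaging). They turned for PSAN (0.065 with cyclic loess, 0.45 after either position centring, 0.21 without samples 1 and 2, -0.14 to 0.045 without 1 sample). They also turned for probe 981 (-0.047) and for the 3-gene desaturase probe (-0.092) after position centring with or without averaging, and for the probe of both FATA genes (0.21 as deposited, 0.38 after either position centring). The cause was not tested. The FATB signal, near the low end of the array, limits how closely its difference can be given.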
